A study of Mus musculus with 25 samples.

Results

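P53 is a transcription factor that accumulates when DNA is damaged or growth signals are abnormal, and it switches on genes that stop the cell cycle, repair DNA or kill the cell. Among its textbook targets, Cdkn1a blocks cyclin-dependent kinases, Mdm2 marks P53 for destruction and so closes a feedback loop, and Bax opens the mitochondrial outer membrane. In dividing glia P53 is known mainly as a brake on proliferation. A compound labelled P53 inhibitor was given to cultured mouse cortical astrocytes, and all genes were compared with those of the cells' own DMSO control. The comparison used the 3 P53 inhibitor libraries and the 3 DMSO libraries of that experiment, 6 of the 25 libraries of the series.

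All libraries came from cortical astrocytes of C57BL/6J mice. The cells were purified with an antibody to HepaCAM, an astrocyte adhesion protein, and sequenced as total RNA. The inhibitor was added on day 2 in vitro. The sources used here give neither the name and dose of the inhibitor nor the day of harvest. The other libraries were an EGFR inhibitor experiment with its own DMSO control, cells with HBEGF or with HBEGF withdrawn, and cells at days 2, 7 and 14. Only the EGFR inhibitor experiment and days 2 and 14 are used below, for comparison. Nothing ties the replicates to separate animals or cultures, so the p-values reflect spread among these libraries alone, possibly technical spread.

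The DMSO libraries held 4538723, 7058225 and 4715598 counted reads and the inhibitor libraries 8940753, 9121796 and 6090329. Genes at 1 RPKM or more numbered 9088 to 9340 with DMSO and 8903 to 9050 with the inhibitor, so those 2 ranges did not overlap. The deposited unit, RPKM (reads scaled to gene length and library size), used the whole span of a gene with its introns, so levels of genes with long introns are understated. Across genes, 2 inhibitor libraries correlated at 0.932 to 0.947, 2 DMSO libraries at 0.898 to 0.915, and libraries of different groups at 0.901 to 0.934. Summed astrocyte identity markers stood at 109.7 to 109.9 RPKM with the inhibitor and 139.8 to 143.7 RPKM with DMSO, and 2 of the 11, Gjb6 and S100b, were below 1 RPKM in all 6 libraries. Most of that sum came from Sox9 and Aldoc, which were both lower with the inhibitor. Sox9 had 64.2 to 67.6 RPKM with DMSO and 39.4 to 43.8 RPKM with the inhibitor, and Aldoc 31.9 to 32.8 against 21.4 to 24.4 RPKM. The list as a whole went both ways. Of its 9 tested members, 3 had all inhibitor libraries above all DMSO libraries and 4 had them all below (9.05% and 11.3% of all tested genes). Gfap, the intermediate filament, stood at 0.939 to 1.35 RPKM over the 6 libraries, Aldh1l1, a folate enzyme, at 1.43 to 2.09 RPKM, and Aqp4, the water channel, at 6.47 to 8.16 RPKM. Endothelial markers were near 0, with a summed level of at most 0.2501 RPKM, and 23 of 24 microglia and macrophage markers were below 1 RPKM in all 6 libraries. In these bulk samples, fewer cells of a type and less RNA per cell cannot be told apart.

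The regions before the start sites of 4 genes described below are shown. Cdkn1a and Ccng1 are P53 targets, and Txnip and Arrdc4 are related genes that both fell. Each line gives the 250 bases before the gene's start in RefSeq (build GRCm38.p6), read in the direction of the gene, with capitals for the motif named after it. The lines are from chr17:29090729-29090978 (Cdkn1a, plus strand, the more distal of its 2 start sites), chr11:40755287-40755536 (Ccng1, minus strand), chr3:96557707-96557956 (Txnip, plus strand) and chr7:68749239-68749488 (Arrdc4, minus strand).
Cdkn1a: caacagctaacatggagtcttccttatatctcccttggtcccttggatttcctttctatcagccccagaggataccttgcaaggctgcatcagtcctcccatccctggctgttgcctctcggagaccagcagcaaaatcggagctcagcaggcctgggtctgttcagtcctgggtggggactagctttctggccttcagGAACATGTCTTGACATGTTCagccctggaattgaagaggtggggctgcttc
Ccng1: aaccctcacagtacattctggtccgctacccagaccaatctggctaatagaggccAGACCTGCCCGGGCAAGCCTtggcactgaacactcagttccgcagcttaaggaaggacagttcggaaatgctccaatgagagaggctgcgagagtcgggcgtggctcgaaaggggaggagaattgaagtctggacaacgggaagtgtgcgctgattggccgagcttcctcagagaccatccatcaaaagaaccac
Txnip: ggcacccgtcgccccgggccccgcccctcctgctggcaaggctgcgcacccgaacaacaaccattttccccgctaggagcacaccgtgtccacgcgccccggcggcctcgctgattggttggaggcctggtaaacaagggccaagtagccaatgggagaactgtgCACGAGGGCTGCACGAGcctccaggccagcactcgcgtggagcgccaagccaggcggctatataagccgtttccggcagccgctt
Arrdc4: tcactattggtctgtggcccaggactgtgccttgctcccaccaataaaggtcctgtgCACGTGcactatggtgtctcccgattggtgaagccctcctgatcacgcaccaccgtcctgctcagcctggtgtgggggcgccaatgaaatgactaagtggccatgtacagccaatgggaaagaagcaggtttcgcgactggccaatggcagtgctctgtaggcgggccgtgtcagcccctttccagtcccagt
In Cdkn1a and Ccng1 the capitals mark a 20-base P53 site with 1 mismatch to the consensus, 51 and 195 bases before the start. Such a site, searched on both strands, occurred in 25 of 27025 genes with a RefSeq window (0.0925%). In Txnip they mark a pair of CACGNG elements (N is any base) with 5 bases between them, 85 bases before the start, which 14 of 27025 genes held (0.0518%). In Arrdc4 they mark the single E-box CACGTG, 193 bases before the start, present in 6.86% of genes. All 250 bases of the Txnip window lie in an exon of the antisense gene Gm15441. A match to these letters is a description of the window, not evidence of binding.

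Few genes passed the test. By limma on log2(RPKM + 1), with the spread shared over the 25 libraries, 4 genes rose and 21 fell at an adjusted p under 0.05 among 13850 tested, which is 0.181% in all (0.0289% higher, 0.152% lower). Without adjustment 1128 genes had p under 0.05. All 25 genes had 3 inhibitor libraries on one side of all 3 DMSO libraries. Among all tested genes, 9.05% had their inhibitor libraries wholly above DMSO and 11.3% wholly below. The split moved with the scaling, to 10 higher and 25 lower with median-of-ratios scaling and to 10 higher and 18 lower with quantile normalization. Without inhibitor replicate 2 the counts dropped to 0 higher and 2 lower, and without DMSO replicate 2 they went to 8 and 29. Of the 25 genes, 24 lost their call in at least 1 alternative, and none changed sign. On reads recovered from the RPKM values, tested by voom, 29 rose and 92 fell among 17366 genes (0.697% in all), and 20 of the 21 genes that both fits could test were called in both.

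Among called genes of at least 5 RPKM the strongest decrease was that of Txnip, which encodes an arrestin-like protein that limits glucose uptake and binds thioredoxin. Its levels were 13.6, 14.7 and 12.9 RPKM with DMSO and 3.33, 2.21 and 4.01 RPKM with the inhibitor. All inhibitor libraries were lower than all DMSO libraries. Txnip fell by 1.84 ± 0.33 (SE) on the log2 scale (limma adjusted p = 0.0228), a ratio of mean RPKM of 4.31 between DMSO and inhibitor. The gene (ENSMUSG00000038393.14, chromosome 3, 96557957 to 96561883) overlaps Gm15441, and no source used here states whether counting used strand, so their reads cannot be told apart. Its relative Arrdc4, also an arrestin-domain gene that responds to glucose, stood at 2.48, 2.53 and 2.29 RPKM with DMSO and 0.886, 0.662 and 0.965 RPKM with the inhibitor. The groups did not overlap, and Arrdc4 fell by 0.90 ± 0.13 (limma adjusted p = 0.00639). These were the only 2 of 20 tested members of the glycolysis list to pass (0.152% of all tested genes were called lower). Txnip lost its call in 9 of 20 alternative analyses and Arrdc4 in 2 of 19.

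Cdkn1c encodes p57, an inhibitor of cyclin-dependent kinases in the same family as Cdkn1a. It had 5.93, 5.54 and 7.59 RPKM with DMSO and 2.19, 2.02 and 2.48 RPKM with the inhibitor, so every inhibitor library lay below every DMSO library. The log2 change was -1.18 ± 0.20 (limma adjusted p = 0.0194). Of the 20 tested genes for G1 cyclins, E2F factors and CDK inhibitors, only Cdkn1c passed (0.152% of all tested genes were called lower). In that list 15 genes had a positive change and 5 a negative one (median 0.12). Of the 20, 7 were wholly higher and 2 wholly lower (9.05% and 11.3% of all tested genes). Another member of that family, Cdkn1b (p27), had 21.2, 18.1 and 18.1 RPKM against 13.8, 12.8 and 14.5 RPKM without overlap, but did not pass (log2 change -0.45 ± 0.12, adjusted p = 0.158). The Myc family gene Mycl went from 4.42, 4.83 and 4.44 RPKM to 2.14, 2.08 and 1.90 RPKM and fell by 0.87 ± 0.17 (adjusted p = 0.0486). The Mycl call sat close to the threshold and was lost in 12 of 20 alternatives.

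Igsf9b, an immunoglobulin-family adhesion gene of inhibitory synapses (ENSMUSG00000034275.18, chromosome 9, 27299204 to 27357546), had 2.11, 1.89 and 2.41 RPKM with DMSO and 0.648, 0.712 and 0.625 RPKM with the inhibitor. It fell by 0.91 ± 0.10 (limma adjusted p = 0.000599), and the call was kept in all 19 alternatives that tested it. Mfsd2a, a transporter of lysophospholipids, had 3.07, 2.79 and 2.90 RPKM against 1.01, 0.910 and 0.790 RPKM and fell by 1.04 ± 0.17 (adjusted p = 0.0169). Cybrd1, a ferric reductase, had 8.38, 10.4 and 8.73 RPKM against 5.89, 5.95 and 4.996 RPKM, a change of -0.62 ± 0.11 (adjusted p = 0.0194). Vangl2, of the planar cell polarity pathway, had 5.01, 4.69 and 4.11 RPKM against 2.94, 2.97 and 2.99 RPKM (log2 change -0.50 ± 0.08, adjusted p = 0.0169). In each of these genes the inhibitor libraries were all lower than the DMSO libraries, as the plot of single libraries shows. The pleckstrin-homology gene Plekhb1 fell by 0.67 ± 0.13 (adjusted p = 0.0471). The other decreases were Miat (a long noncoding RNA, log2 change -1.27), Zfp488 (an oligodendrocyte-lineage zinc finger factor, -0.88), Fam71e1 (-0.73), Fam102a (-0.47), Tro (-0.46), 1810026B05Rik (-0.40), the small GTPase gene Arl4a (-0.40), the caspase gene Casp2 (-0.39), Gm47427 (-1.02), Gm26775 (-0.97), Gm48967 (-0.69) and Snord55 (-2.21).

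**Figure D1:**
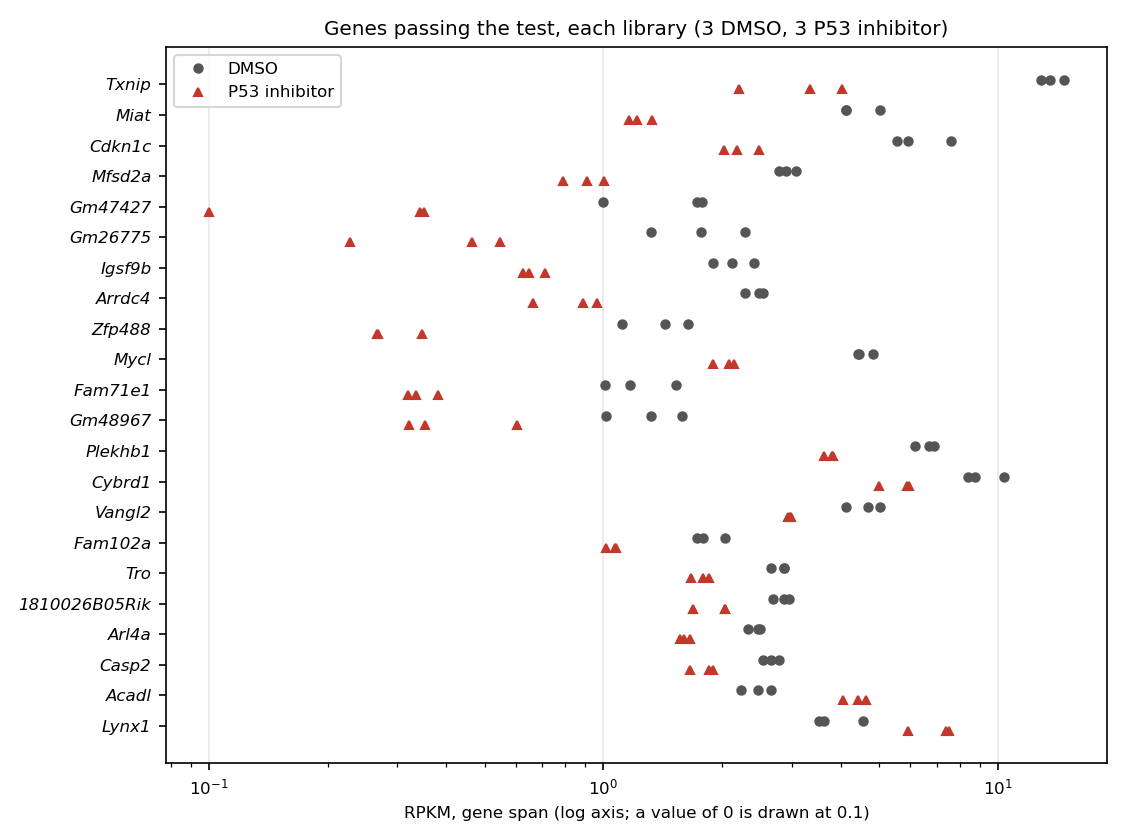
RPKM on a log axis in each of the 3 DMSO libraries (circles) and 3 P53 inhibitor libraries (triangles) for 22 of the 25 genes that passed the test, leaving out the 3 with under 4 reads in every library. In each gene shown the 2 sets of points do not overlap, and Txnip has 2.21 to 4.01 RPKM with the inhibitor against 12.9 to 14.7 RPKM with DMSO.

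Acadl and Lynx1 were the 2 genes that rose with more than a few reads behind them. Acadl encodes the long-chain acyl-CoA dehydrogenase of mitochondrial fatty acid oxidation (ENSMUSG00000026003.5, chromosome 1, 66830839 to 66863277). It had 2.23, 2.46 and 2.67 RPKM with DMSO and 4.41, 4.63 and 4.06 RPKM with the inhibitor, with no overlap. The change was 0.64 ± 0.10 (limma adjusted p = 0.00926). Lynx1, a modulator of nicotinic acetylcholine receptors, had 3.52, 4.55 and 3.63 RPKM against 7.51, 7.36 and 5.91 RPKM, and rose by 0.69 ± 0.13 (adjusted p = 0.0445). The other calls upward, Mir124a-2 (0 reads in DMSO libraries, 2, 2 and 1 with the inhibitor) and Gm37508 (0 reads, then 1, 2 and 1), and the decrease of Snord55 (3, 1 and 1 reads, then 0) rest on under 4 reads in every library. Genes of overlapping neighbours, where reads cannot be assigned with certainty, include Miat, Cdkn1c, Acadl, Casp2, Gm47427, Gm26775, Gm48967, 1810026B05Rik, Snord55, Mir124a-2 and Gm37508. Among genes described below they include Cdkn1a, Bax, Gfap, Aqp4, Mki67, Egfr, Pdgfra, Gpr17, Tnr, Olig1, Nkx2-2, Crot, Atp5b, Nfe2l2, Sox4, Sparcl1, Slc1a2, Pkm and Top2a.

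None of the 39 tested P53 targets passed, and Trp53 itself did not. Trp53 had 8.03, 9.91 and 7.60 RPKM with DMSO and 7.35, 7.18 and 6.69 RPKM with the inhibitor. The inhibitor libraries were all lower, but the change of -0.23 ± 0.12 did not pass (limma adjusted p = 0.683). The Trp53 transcript does not measure P53 activity, so it is no check of the label. Of the 70 target genes listed, 39 reached the level for testing. Against 9.05% of all genes, 11 of these 39 were wholly higher, and against 11.3%, 3 were wholly lower, with a median log2 change of 0.08 against -0.01 over all tested genes. By limma 4 of the 39 had an unadjusted p under 0.05, and 12 when only the 6 P53 libraries were fitted. Over all 13850 tested genes these counts were 1128 and 1902. By voom on recovered reads, 1 of 66 rose and 0 fell (0.167% and 0.53% of all genes), with 7 at an unadjusted p under 0.05. Over all 17366 genes of that fit, 1670 had such a p.

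The cell cycle arrest targets leaned upward, as did the mitosis genes described below, and whether the 2 shifts are separate was not tested. Of 14 tested, 7 were wholly higher and 1 wholly lower (9.05% and 11.3% of all tested genes). Cdkn1a, the p21 gene (ENSMUSG00000023067.14, chromosome 17, 29090976 to 29100727), had 15.9, 15.1 and 17.9 RPKM with DMSO and 25.8, 25.3 and 22.8 RPKM with the inhibitor. All 3 inhibitor libraries were above all 3 controls, at 1.51 times the control mean. The change was 0.57 ± 0.30, with a 95% interval of -0.07 to 1.20 (limma adjusted p = 0.687). When only the 6 libraries were fitted on recovered reads, voom gave an adjusted p of 0.000222 for Cdkn1a, an analysis that called 896 genes, among them Btg2 in the opposite direction (adjusted p = 0.00251). Ccng1, a cyclin-family target (ENSMUSG00000020326.7, chromosome 11, 40748552 to 40755311), had 28.3, 31.1 and 30.1 RPKM against 47.9, 46.2 and 44.3 RPKM, again without overlap. Its change was 0.61 ± 0.15 (95% interval 0.29 to 0.94, adjusted p = 0.135), and voom over the 25 libraries called it (adjusted p = 0.0306). Cdkn1a and Ccng1 were the only 2 of 56 listed P53 targets with a promoter window to hold the 20-base site printed above (3.57%). The antiproliferative gene Btg2 went the other way, with 22.2, 22.1 and 26.1 RPKM against 14.2, 17.5 and 15.5 RPKM (log2 change -0.55 ± 0.27, adjusted p = 0.632). The spindle-associated gene Psrc1 had 8.38, 8.48 and 8.45 RPKM against 11.9, 11.4 and 10.99 RPKM (0.40 ± 0.17, adjusted p = 0.537). The RNA-binding Zmat3 (0.16 ± 0.10), the microtubule-associated Gtse1 (0.26 ± 0.22) and Ckap2 (0.44 ± 0.34) were also wholly higher and did not pass.

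Of 7 tested cell death targets, 3 were wholly higher and 0 wholly lower (9.05% and 11.3% of all tested genes). Aen, a nuclease gene, had 0.846, 0.904 and 0.884 RPKM against 1.29, 1.31 and 1.36 RPKM (0.30 ± 0.17, adjusted p = 0.712). Bax overlapped between groups, with 8.47, 7.95 and 6.85 RPKM against 8.28, 8.53 and 5.87 RPKM. Among 5 feedback targets, Mdm2 was nearly level at 5.18, 4.50 and 4.86 RPKM against 4.89, 4.72 and 4.80 RPKM. Its log2 change was -0.01 ± 0.11, with the sign turning under 3 of the scalings. Among 15 repair, redox and metabolism targets, 1 was wholly higher and 2 wholly lower, shares near those of all tested genes (9.05% and 11.3%). The mTOR regulator Ddit4, with 5.29, 4.06 and 4.02 RPKM against 2.84, 2.53 and 2.81 RPKM, was one of these 2 (-0.54 ± 0.25, adjusted p = 0.594). Of 17 tested P53 regulators and cofactors, 0 were wholly higher and 6 wholly lower (9.05% and 11.3% of all tested genes). Ube2d1, a ubiquitin-conjugating enzyme that works with Mdm2, had the smallest p (log2 change -0.35 ± 0.09, adjusted p = 0.181).

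**Figure D2:**
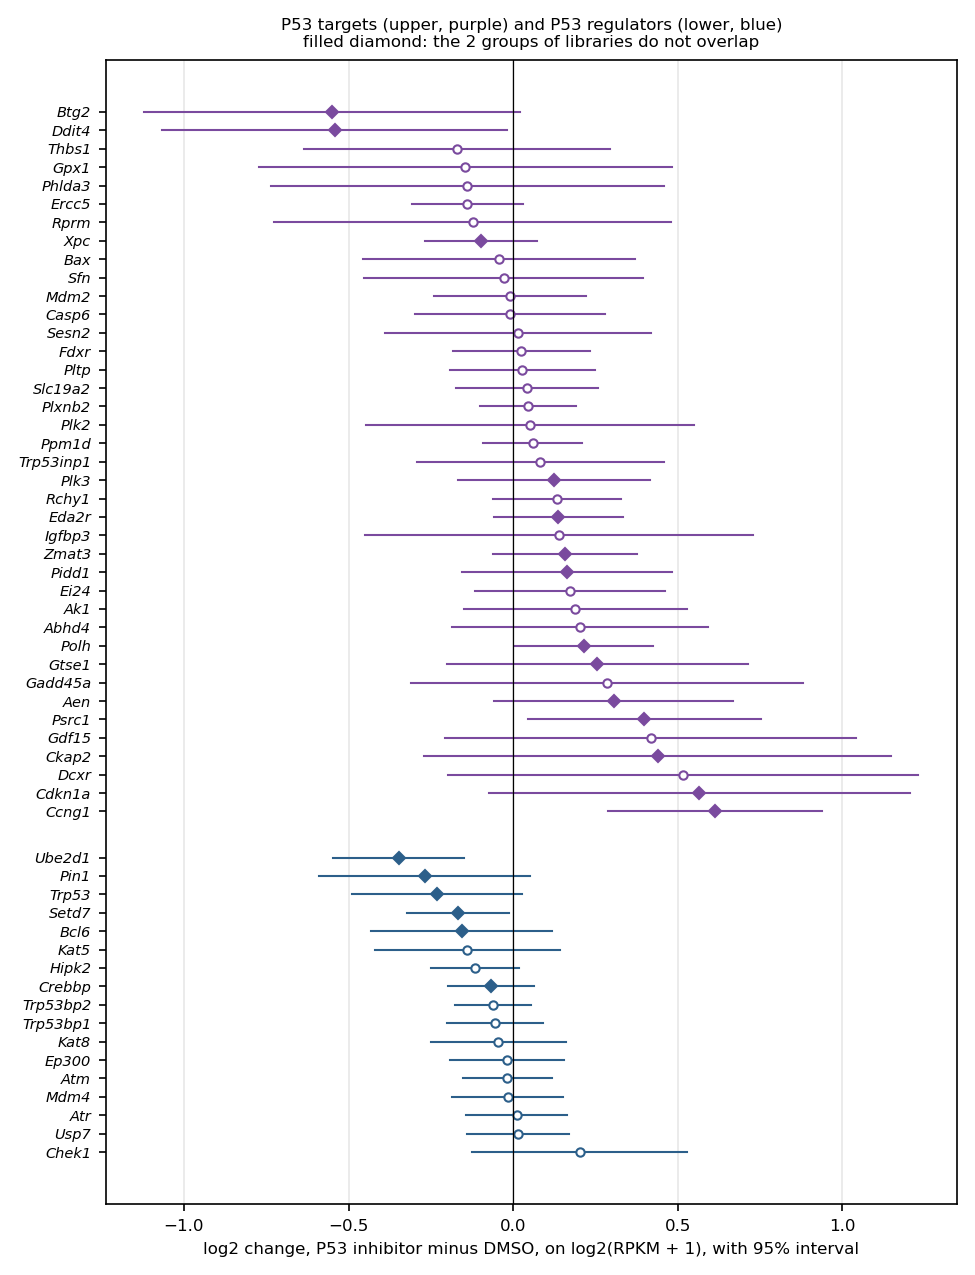
Log2 change (P53 inhibitor minus DMSO, on log2(RPKM + 1)) with 95% intervals for the tested P53 targets (purple) and P53 regulators (blue). Filled diamonds mark genes whose groups do not overlap, such as Cdkn1a at 0.57 and Ccng1 at 0.61, and none of the genes shown passed the test.

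Cell division genes were higher in most members by small amounts, with no member called. Of 41 tested mitosis genes 37 had a positive log2 change (median 0.21). In all, 26 were wholly higher and 0 wholly lower (9.05% and 11.3% of all tested genes). With the spread shared over the 25 libraries, 0 of the 41 had an unadjusted p under 0.05 by limma or by voom. With limma on only the 6 P53 libraries 21 of the 41 did (1902 of 13850 over all genes), and 0 passed after adjustment. Mki67, the proliferation marker, had 36.8, 29.6 and 34.0 RPKM with DMSO and 45.0, 42.8 and 47.4 RPKM with the inhibitor. The groups did not overlap, but the change of 0.42 ± 0.56 did not pass (limma adjusted p = 0.931). Top2a, the DNA topoisomerase of mitosis, had 15.6, 14.4 and 16.5 RPKM against 21.7, 21.4 and 21.0 RPKM (0.44 ± 0.45, adjusted p = 0.882). The spindle checkpoint kinase Ttk had 1.16, 1.11 and 1.33 RPKM against 1.65, 1.62 and 1.71 RPKM (adjusted p = 0.832). The 37 tested DNA replication genes had a median of 0.17, with 18 wholly higher and 0 wholly lower, and limma and voom called none (0 by limma and 3 by voom at an unadjusted p under 0.05, and 13 by limma on only the 6 P53 libraries). The thymidylate synthase gene Tyms had 1.81, 2.32 and 1.94 RPKM against 2.86, 2.87 and 2.69 RPKM (0.34 ± 0.18, adjusted p = 0.692). Replication-dependent histone genes did not follow, with a median of -0.29. Of the 29 tested, 0 were wholly higher and 6 wholly lower (9.05% and 11.3% of all tested genes). These histone genes have near-identical copies and are uncertain. Of the 33 mitosis genes with a promoter window in the table, 17 held TTTGAA or TTTAAA (51.5%), the letters of the CHR element of cell cycle genes, against 28.1% of all genes, both strands searched.

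Genes of the oligodendrocyte precursor lineage stood lower with the inhibitor, several by a wide margin. All 9 tested markers had a negative change (median -0.25), and 5 were wholly lower against 0 wholly higher. With the spread shared over the 25 libraries, none passed by limma (4 at an unadjusted p under 0.05). Over all 13850 tested genes 11.3% were wholly lower and 9.05% wholly higher, and 1128 had such a p. Limma on only the 6 P53 libraries called 2 of the 9 lower, Gpr17 (adjusted p = 0.0318) and Pdgfra (0.0477). That fit called 17 of all 13850 genes lower. Gpr17, a receptor of committed precursors, had 3.88, 3.65 and 4.76 RPKM with DMSO and 0.573, 0.710 and 0.396 RPKM with the inhibitor. Its change was -1.71 ± 0.37 (limma adjusted p = 0.0731). Sox10, the lineage transcription factor, had 3.69, 5.32 and 4.08 RPKM against 1.49, 1.59 and 1.37 RPKM (-1.10 ± 0.25, adjusted p = 0.0898). Pdgfra, the growth factor receptor of precursors, had 1.55, 1.87 and 1.73 RPKM against 0.677, 0.737 and 0.665 RPKM (-0.68 ± 0.16, adjusted p = 0.108). The homeobox factor Nkx2-2 had 1.45, 1.22 and 1.23 RPKM against 0.770, 0.853 and 0.885 RPKM. By voom, 3 of 12 markers fell (0.53% of all genes): Sox10 (adjusted p = 0.0462), Pdgfra (0.0384) and Tnr, a matrix glycoprotein gene (0.0374).

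The most abundant markers of that lineage did not separate. Olig1 and Olig2, named after their values were seen because they hold nearly all of the list's summed level, overlapped between groups. Olig1 had 283, 345 and 309 RPKM with DMSO and 294, 291 and 273 RPKM with the inhibitor. Olig2 had 137, 153 and 147 RPKM against 145, 145 and 132 RPKM. The less abundant marker Cspg4 overlapped as well, with 1.02, 1.20 and 0.992 RPKM against 0.956, 1.13 and 0.876 RPKM (log2 change -0.06 ± 0.11). Summed precursor markers were 432 to 512 RPKM with DMSO and 409 to 444 RPKM with the inhibitor. Mature oligodendrocyte markers summed to 6.12 to 6.59 against 3.92 to 4.37 RPKM, with 13 of 14 below 1 RPKM in all 6 libraries and Ppp1r14a at 0. Markers of pericytes, smooth muscle and fibroblasts, a list that shares Pdgfra, summed to 2.995 to 3.75 against 1.21 to 1.42 RPKM, and Dcn and Lum were at 0. Neuron markers summed to 6.22 to 6.77 against 5.34 to 5.47 RPKM, with 18 of 20 below 1 RPKM in all 6 libraries and Slc17a7 and Dlx5 at 0. The part of these cell types in the results was not tested.

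**Figure D3:**
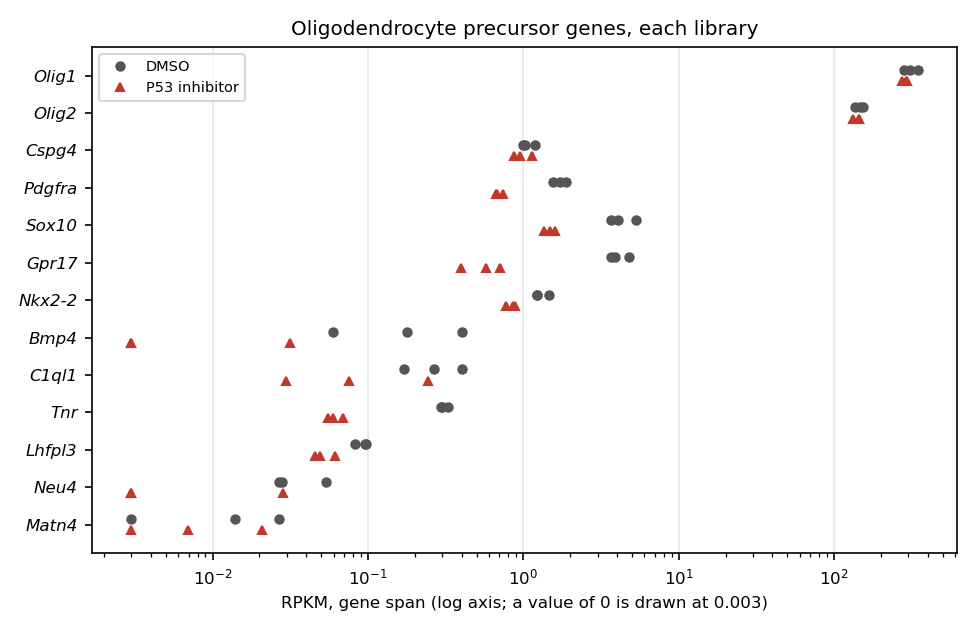
RPKM on a log axis of 13 oligodendrocyte precursor markers in each DMSO library (circles) and P53 inhibitor library (triangles). Gpr17 (0.396 to 0.710 against 3.65 to 4.76), Sox10, Pdgfra and Tnr separate completely, whereas Olig1 and Olig2 overlap.

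Astrocyte genes differed in both directions, and none of 35 tested mature astrocyte genes passed by limma (4 at an unadjusted p under 0.05), while voom called 1 of 40 lower. Over all tested genes 1128 of 13850 had such a p by limma, and voom called 0.53% lower. Sox9, the gliogenic transcription factor, had 65.7, 67.6 and 64.2 RPKM with DMSO and 42.9, 39.4 and 43.8 RPKM with the inhibitor (log2 change -0.64 ± 0.16, limma adjusted p = 0.139; voom 0.0212). Sparcl1, the secreted synapse-promoting protein hevin, had 8.87, 7.47 and 7.93 RPKM against 15.6, 17.0 and 15.2 RPKM (0.90 ± 0.22, adjusted p = 0.117). The glutamate transporter gene Slc1a2 had 3.15, 3.70 and 3.33 RPKM against 4.97, 5.23 and 5.31 RPKM (0.49 ± 0.19, adjusted p = 0.448). All 3 of these genes separated the groups completely. Gfap overlapped, and Aqp4 was wholly lower by a small amount (-0.22 ± 0.27). Among genes of immature cells, Sox4 had 21.5, 16.8 and 22.0 RPKM against 10.7, 9.51 and 10.6 RPKM (-0.90 ± 0.19, adjusted p = 0.0667). Dll3, a Notch ligand gene, had 1.67, 2.56 and 2.34 RPKM against 0.914, 0.883 and 0.888 RPKM and just missed the threshold (-0.74 ± 0.15, adjusted p = 0.0514).

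Most tested glycolysis and oxidative phosphorylation genes had positive changes (15 of 20 and 34 of 50, against 6346 of 13850 over all genes). The glycolysis list also holds the arrestin-domain genes Txnip and Arrdc4, its only 2 calls by limma, which were among its 5 negative changes. Among 20 tested glycolysis genes 10 were wholly higher and 3 wholly lower (9.05% and 11.3% of all tested genes). Ldha, lactate dehydrogenase, had 13.3, 17.8 and 14.6 RPKM against 22.8, 22.7 and 21.1 RPKM (0.52 ± 0.15, limma adjusted p = 0.194). Pkm, pyruvate kinase, had 7.93, 11.5 and 11.4 RPKM against 14.5, 14.8 and 13.4 RPKM (0.45 ± 0.13, adjusted p = 0.224). Of 50 oxidative phosphorylation genes, 12 were wholly higher and 4 wholly lower (9.05% and 11.3% of all tested genes). Atp5b, the ATP synthase beta subunit, had 303, 368 and 391 RPKM against 521, 537 and 444 RPKM (0.50 ± 0.11, adjusted p = 0.0765), and voom called it with Atp5g3 (adjusted p = 0.00503 and 0.0424). A list of 25 tested fatty acid oxidation genes, written after Acadl had been seen, held 1 call upward, Acadl itself, and 0 downward. Over all tested genes limma called 0.0289% higher and 0.152% lower. Of the 25, 8 were wholly higher and 3 wholly lower (9.05% and 11.3% of all tested genes). By voom 3 of 34 rose (0.167% of all genes). Besides Acadl these were Cpt1a, the carnitine palmitoyltransferase that controls entry into mitochondria (1.04, 1.32 and 1.26 RPKM against 2.24, 2.37 and 2.17 RPKM, voom adjusted p = 0.0205), and the peroxisomal Crot (voom adjusted p = 0.0308). Of 19 genes of the NRF2 oxidative stress response, 9 were wholly higher and 0 wholly lower (9.05% and 11.3% of all tested genes). They included Gclc, of glutathione synthesis (0.40 ± 0.11, adjusted p = 0.171), and Nfe2l2, which encodes NRF2 (0.37 ± 0.11, adjusted p = 0.203).

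Immune and growth factor genes held no calls by limma. All 11 tested interferon response genes had a negative change (median -0.41), with 4 wholly lower and 4 at an unadjusted p under 0.05, and voom called 1 of 23 lower. Over all tested genes 11.3% were wholly lower, 1128 of 13850 had such a p by limma, and voom called 0.53% lower. The MHC class I gene H2-D1 had 4.39, 4.34 and 3.78 RPKM against 2.56, 2.96 and 3.17 RPKM (-0.41 ± 0.10, limma adjusted p = 0.122). Egfr was level, with 6.92, 7.49 and 7.13 RPKM against 7.32, 7.15 and 7.34 RPKM, and of the 7 tested EGF ligand and receptor genes 0 had an unadjusted p under 0.05 by limma, while voom called 1 of 14 lower. The ligand gene Hbegf had 1.17, 0.990 and 0.994 RPKM against 1.16, 1.19 and 1.12 RPKM. Ribosomal protein genes had a median of -0.11, with 7 of 41 wholly lower and 0 wholly higher (11.3% and 9.05% of all tested genes).

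**Figure D4:**
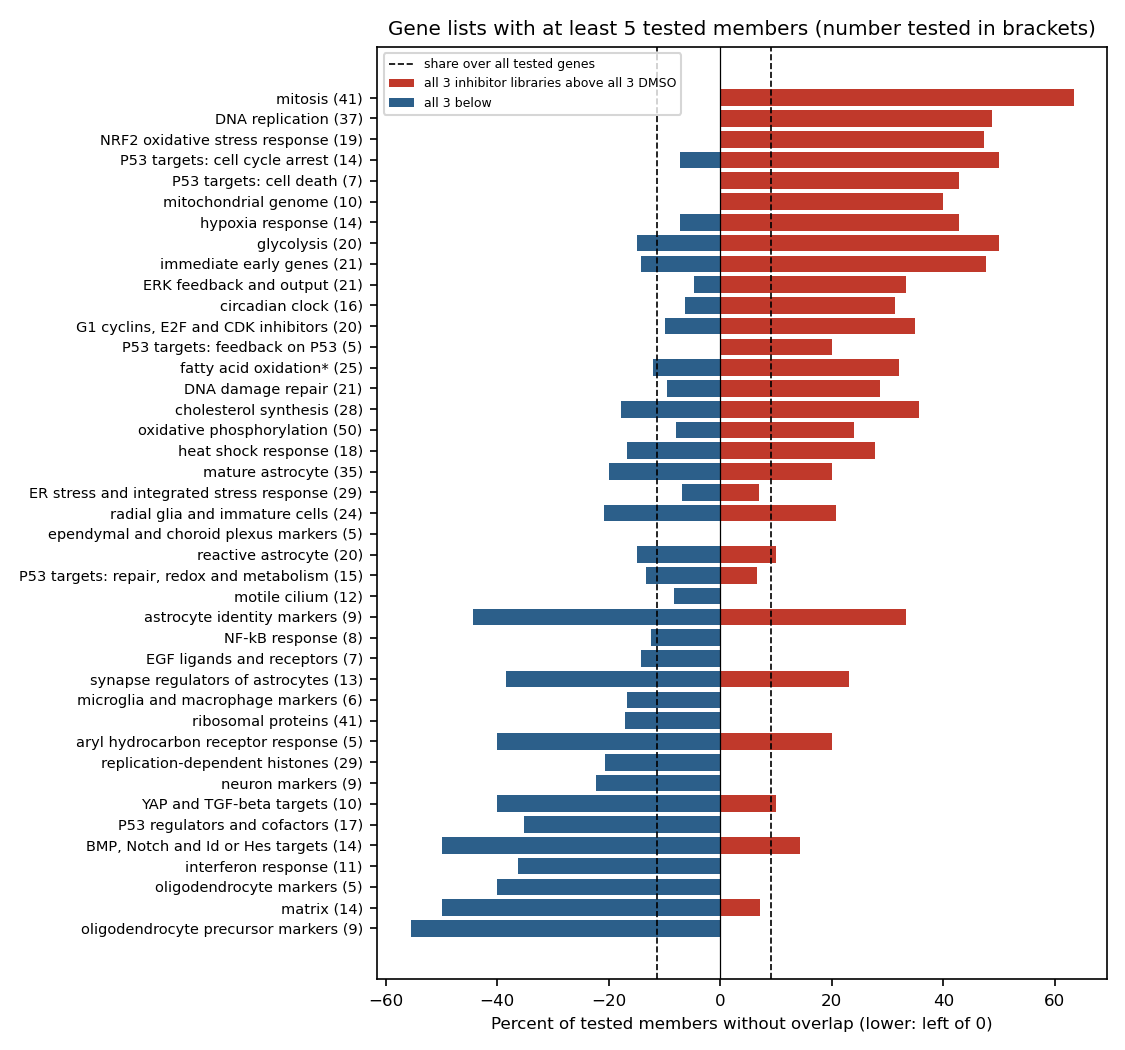
Percent of the tested members of each gene list whose 3 inhibitor libraries all lay above (red) or all below (blue) the 3 DMSO libraries, with dashed lines at the shares over all tested genes (9.05% and 11.3%). Mitosis genes (26 of 41 higher) stand at one end and oligodendrocyte precursor markers (5 of 9 lower) at the other. The asterisk marks the list written after values were seen.

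Genes that changed with time in culture were also followed. From day 2 to day 14, 5.55% of all tested genes were called higher and 17.6% lower. Among 143 genes that rose by at least 1 in log2 from day 2 to day 14, 48 were wholly lower and 15 wholly higher with the P53 inhibitor, with a median of -0.09 and 3 called lower by limma (31 at an unadjusted p under 0.05), while voom called 9 of 127 lower. Over all tested genes 11.3% were wholly lower and 9.05% wholly higher, and 1128 of 13850 had an unadjusted p under 0.05 by limma. Limma called 0.152% of all genes lower and voom 0.53%. Among 215 genes that fell over that time, 20 were wholly lower and 50 wholly higher, with a median of 0.11 and none called by limma (25 at an unadjusted p under 0.05), while voom called 1 higher and 1 lower of 175. Over all tested genes the median was -0.01. The day libraries share no sample with the P53 experiment.

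The response to the P53 inhibitor was compared with that to the EGFR inhibitor, each against its own DMSO libraries. The difference of the 2 changes passed for 4129 of 13850 genes (29.8%), 2297 where the P53 inhibitor change was the higher and 1832 where it was the lower. Of the 25 genes called for the P53 inhibitor, 20 differed in this test. That difference contains the P53 inhibitor change by which the 25 were selected, so the count is not independent of their selection. Under the EGFR inhibitor 11 of the 25 were called in the opposite direction and 3 in the same direction, where 16.3% of all genes were called higher and 22.2% lower. Txnip, down with the P53 inhibitor, rose by 2.49 ± 0.33 with the EGFR inhibitor (limma adjusted p = 1.19e-05). Miat rose there by 3.42 ± 0.19. Arrdc4, Igsf9b, Mycl and Vangl2 were likewise called in opposite directions. Cybrd1 and Mfsd2a fell under both inhibitors (-0.62 and -1.01 with the EGFR inhibitor), with differences of 0.0019 ± 0.15 and -0.04 ± 0.24 between them. Cdkn1a fell by 1.22 ± 0.30 with the EGFR inhibitor, a difference of 1.79 between the inhibitors (adjusted p = 0.00423). Ccng1 fell by 0.65 ± 0.15 there, a difference of 1.27 (adjusted p = 0.000320).

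**Figure D5:**
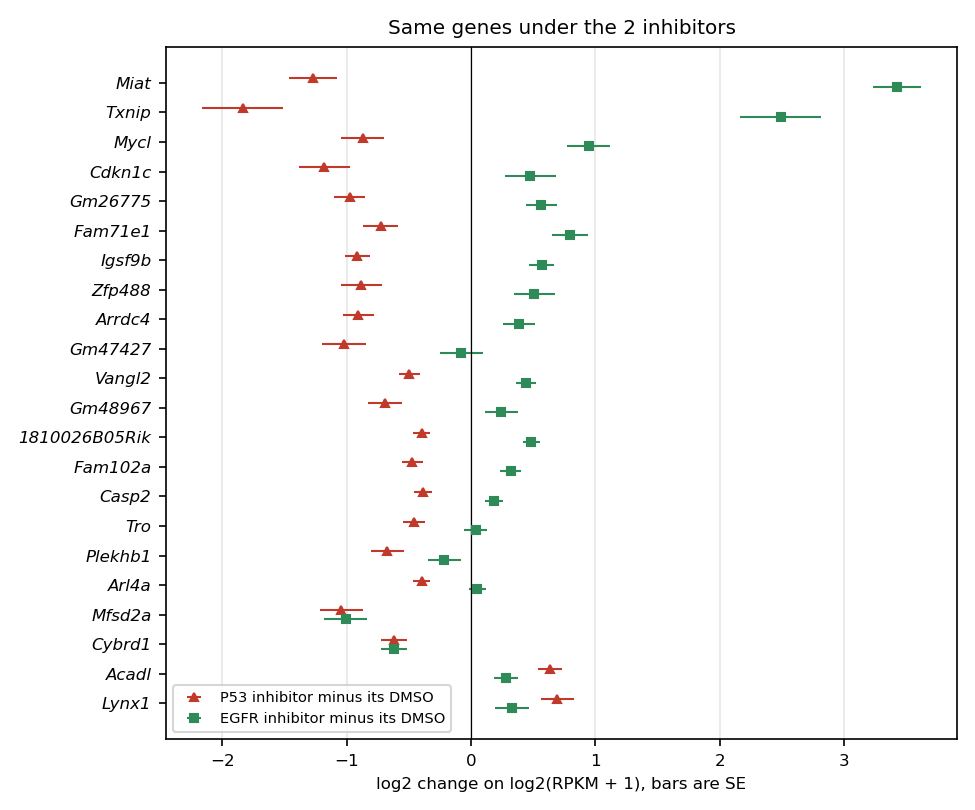
Log2 change with SE for 22 genes that passed the P53 inhibitor test, under the P53 inhibitor (triangles) and the EGFR inhibitor (squares), each against its own DMSO libraries. Miat (-1.27 and 3.42) and Txnip (-1.84 and 2.49) lie furthest apart, and Cybrd1 and Mfsd2a nearly coincide.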

How the data were processed

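Per the labels' protocols, RNA was extracted with miRNeasy and libraries were made with Ovation RNA-seq V2 and NEBNext Ultra. Per the submitters' processing notes, the authors used GRCm38, STAR, HTSeq, edgeR and limma, with versions and roles not given in the sources used here. The deposited values are RPKM in 25 libraries for 54429 entries, and 98.7% of entries matched GENCODE M21. RPKM times gene span behaved as reads per total library, so whole reads were recovered (99.0 to 99.2% of low values, at most 20 reads, lay within 0.1 of a whole).

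Genes at 1 RPKM in at least 2 libraries (13850) were fitted with limma 3.58.1 (R 4.3.3) on log2(RPKM + 1), with 9 group means over 25 libraries, 16 residual degrees of freedom, trend and robust empirical Bayes, and Benjamini-Hochberg adjustment. This pseudocount understates the fold of low genes. Voom used 17366 genes with at least 10 reads in at least 3 libraries. Alternatives (pseudocount, filter, scaling, recovered reads, P53 libraries alone, replicate block, empirical Bayes options and leaving out each library) are in the closing section. "Wholly" higher or lower means no overlap between the 3 and 3 libraries.

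The comparison, the gene lists and the naming rule were chosen with earlier results of these data known. The rule named called genes without overlap whose higher group averaged 5 RPKM or more, the 4 list members of smallest p, P53 targets and regulators, and Trp53, Cdkn1a, Mdm2, Ccng1, Gfap, Aqp4, Mki67, Egfr and Hbegf. Other called genes, Tnr, Olig1, Olig2, Cspg4, Cpt1a, Crot and Aldoc were named after their values were seen. Summaries used pandas 2.3.3 and numpy 2.4.6 in Python 3.11.15, and figures matplotlib 3.10.9.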

Additional observations from a re-analysis of the deposited data

Results flagged for a closer look

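For each gene below, the log2 change under the P53 inhibitor differed from that under the EGFR inhibitor in limma's test of the difference (adjusted p below 0.05), a test that 29.8% of all genes passed. The value in brackets is the P53 inhibitor change minus the EGFR inhibitor change. For genes called for the P53 inhibitor, it contains the change by which they were selected.

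Among genes called for the P53 inhibitor, the difference was negative for Txnip (-4.33), Vangl2 (-0.94), Tro (-0.49), Casp2 (-0.57), Arrdc4 (-1.29), Cdkn1c (-1.66), 1810026B05Rik (-0.88), Miat (-4.70), Mycl (-1.81), Arl4a (-0.45), Gm47427 (-0.94), Fam102a (-0.79), Igsf9b (-1.48), Gm48967 (-0.94), Fam71e1 (-1.52), Zfp488 (-1.39), Gm26775 (-1.54) and Snord55 (-1.76). It was positive for Mir124a-2 (1.06) and Gm37508 (2.27). Snord55, Mir124a-2 and Gm37508 rest on under 4 reads in every P53 library.

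Among P53 targets and regulators the differences were Cdkn1a (1.79), Ccng1 (1.27), Psrc1 (1.80), Gtse1 (1.46), Btg2 (-1.43) and Ube2d1 (-0.48). For cell cycle genes they were Mki67 (2.90), Top2a (2.67), Ttk (1.54), Tyms (1.45) and Cdkn1b (-1.28). For astrocyte and immature cell genes they were Gfap (-3.87), Aqp4 (-1.99), Sox9 (-2.17), Sox4 (-2.02) and Dll3 (-1.78), and for precursor markers Gpr17 (-3.54), Sox10 (-1.66), Pdgfra (-0.99), Olig1 (1.89) and Olig2 (1.25). Energy genes gave Ldha (2.81), Pkm (1.86), Atp5b (1.75), Atp5g3 (1.61) and Crot (0.41), and Egfr (0.76), Hbegf (1.82) and H2-D1 (-0.73) differed as well. By limma on log2(RPKM + 1) over the 25 libraries, none of the genes of this last paragraph was called for the P53 inhibitor against its DMSO control. Voom called Ccng1, Sox9, Sox4, Dll3, Sox10, Pdgfra, Atp5b, Atp5g3 and Crot. The genes that limma called on only the 6 P53 libraries included Gpr17, Pdgfra and Sox9.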

How the results depend on the processing

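None of the 25 called genes reversed in any alternative, but their number moved. Counts of higher and lower genes were 6 and 11 with no filter, 1 and 7 with a filter of 5 RPKM, 10 and 25 with median-of-ratios scaling, 10 and 18 with quantile normalization, 7 and 25 without mitochondrial genes, 8 and 34 on log2(CPM + 1), 29 and 92 with voom, 8 and 17 with only the P53 libraries, and 109 and 225 with array weights. Voom on the P53 libraries only, chosen after seeing the data, gave 338 and 558. The array weights of the inhibitor libraries were 1.30 to 2.56 and those of the DMSO libraries 0.874 to 1.40. A pseudocount of 0.1, plain empirical Bayes and a filter on the P53 libraries (added after seeing the data) kept both counts within 1.5 times. Leaving out 1 library in turn gave 0 to 8 higher and 2 to 29 lower genes. The counts were 2 and 10, 8 and 29, and 2 and 6 without DMSO replicates 1, 2 and 3, and 2 and 3, 0 and 2 (821 genes at unadjusted p under 0.05), and 4 and 5 without inhibitor replicates 1, 2 and 3. The replicate block left 1 higher and 5 lower genes. Same-numbered libraries correlated at -0.03, 0.06 and 0.02 in their deviations from the group means, so the numbers give no sign of pairing.

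The difference between the 2 inhibitors gave 1078 higher and 560 lower genes with a filter of 5 RPKM, 2867 lower with no filter and 3210 lower with voom. Mdm2 turned positive with median-of-ratios scaling (0.0176), quantile normalization (0.0563) and without mitochondrial genes (0.0112), and ranged from -0.0531 to 0.0308 when 1 library was left out. Bax turned positive with quantile normalization (0.0134) and array weights (0.0367), and ranged from -0.129 to 0.107 on leaving out 1 library. On the same leave-one-out basis Gfap ranged from -0.0389 to 0.0888 and Egfr from -0.00673 to 0.0435. The cause was not tested. The RPKM filter left 38 genes called by voom untested, and 3 calls rest on under 4 reads in every P53 library.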
